A study of Mus musculus with 6 samples.

Results

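Imprinted genes are transcribed mainly from the copy inherited from 1 parent, and 36 of them, all found among the 53700 genes of the count tables, were followed here in mouse germinal vesicle (GV) oocytes with and without Zar1. They were chosen by name from the known imprinted domains, by a rule that uses no value of these libraries but was written with earlier results of these data known. The data are polyA RNA-seq libraries of 10 oocytes each, 3 from Zar1 knockout oocytes and 3 from wild-type oocytes, all on a C57BL/6N background. The titles write the genotypes as Zar -/- and Zar +/+, and no label gives the age of the females, how many were pooled or what part of Zar1 was deleted. The titles number the libraries as biological replicates without saying whether the pools came from separate females, and every p-value rests on the spread between such pools, which may be partly technical.

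Parent-specific expression is set by DNA methylation at imprint control regions, which is erased in germ cells and written again according to sex. In the growing oocyte both copies of a gene acquire the female pattern. Most control regions of genes that are later silent on the maternal copy, such as those of Peg3, Peg10, Mest, Plagl1, Snrpn and Kcnq1ot1, become methylated there. At some of these regions, transcription that runs through them from oocyte promoters is known to be needed for this methylation in mice. The H19 and Dlk1-Meg3 control regions are methylated in sperm instead. ZAR1 is an RNA-binding protein of oocytes. The comparison asks how the mRNAs of imprinted genes differ when it is missing. The reads carry no parental information, so the copy named below is the one usually active in mouse embryos or tissues, not one measured here.

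Promoter windows of 5 members that the results below turn on are printed here to show their CpGs. Whether a window lies in a control region was not examined. Each window runs from 250 bases before to 50 after a transcription start in RefSeq and is printed 5′ to 3′ in the direction of the gene, with every CpG in capitals. Peg3 and Zim1 are neighbours whose mRNAs went in opposite directions, Mcts2 lies inside H13 and rose with it, and Mest fell. Mest has 3 windows, and the most upstream one and 1 of an overlapping pair downstream are shown.
Peg3 promoter window, chr7:6730370-6730669, minus strand, GRCm38.p6: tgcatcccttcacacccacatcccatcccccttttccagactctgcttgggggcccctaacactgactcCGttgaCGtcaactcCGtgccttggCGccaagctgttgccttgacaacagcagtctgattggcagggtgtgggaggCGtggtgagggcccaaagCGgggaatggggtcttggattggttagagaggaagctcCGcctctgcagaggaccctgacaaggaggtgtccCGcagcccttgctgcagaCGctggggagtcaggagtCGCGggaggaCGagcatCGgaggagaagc
Zim1 promoter window, chr7:6696383-6696682, minus strand, GRCm38.p6: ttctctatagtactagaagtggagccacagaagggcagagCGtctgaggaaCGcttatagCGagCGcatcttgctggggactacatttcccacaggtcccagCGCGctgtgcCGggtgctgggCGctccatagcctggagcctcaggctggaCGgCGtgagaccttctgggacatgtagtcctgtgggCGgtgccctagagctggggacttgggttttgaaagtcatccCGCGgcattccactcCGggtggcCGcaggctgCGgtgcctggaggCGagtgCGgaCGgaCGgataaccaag
H13 promoter window, chr2:152669211-152669510, plus strand, GRCm38.p6: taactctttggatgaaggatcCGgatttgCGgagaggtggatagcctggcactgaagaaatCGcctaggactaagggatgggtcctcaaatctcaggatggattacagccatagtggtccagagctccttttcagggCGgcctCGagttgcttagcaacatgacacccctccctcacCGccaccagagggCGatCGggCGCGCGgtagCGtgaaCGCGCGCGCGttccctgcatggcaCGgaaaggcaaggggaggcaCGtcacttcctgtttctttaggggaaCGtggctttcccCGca
Mcts2 promoter window, chr2:152686898-152687197, plus strand, GRCm38.p6: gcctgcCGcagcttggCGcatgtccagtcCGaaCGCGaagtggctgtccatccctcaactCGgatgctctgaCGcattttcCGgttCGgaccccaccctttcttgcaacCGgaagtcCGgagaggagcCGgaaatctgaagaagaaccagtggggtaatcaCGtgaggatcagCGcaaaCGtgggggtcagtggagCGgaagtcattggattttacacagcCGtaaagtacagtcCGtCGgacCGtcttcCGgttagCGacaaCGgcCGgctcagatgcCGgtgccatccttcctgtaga
Mest promoter window, chr6:30733256-30733555, plus strand, GRCm38.p6: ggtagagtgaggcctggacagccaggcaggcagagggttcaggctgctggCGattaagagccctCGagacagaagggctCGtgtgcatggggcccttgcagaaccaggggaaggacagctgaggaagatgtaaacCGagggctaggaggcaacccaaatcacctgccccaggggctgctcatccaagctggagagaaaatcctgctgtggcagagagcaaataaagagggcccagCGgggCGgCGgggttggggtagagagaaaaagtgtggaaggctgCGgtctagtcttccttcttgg
Mest promoter window, chr6:30737800-30738099, plus strand, GRCm38.p6: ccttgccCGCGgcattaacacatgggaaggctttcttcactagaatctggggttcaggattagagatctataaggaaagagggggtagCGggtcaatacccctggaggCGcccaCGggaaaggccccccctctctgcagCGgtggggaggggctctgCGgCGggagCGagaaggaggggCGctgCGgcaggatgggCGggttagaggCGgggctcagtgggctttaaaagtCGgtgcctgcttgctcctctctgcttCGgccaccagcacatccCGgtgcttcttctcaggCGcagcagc

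The Peg3 window held 13 CpGs, with an observed over expected CpG ratio of 0.46, and the Zim1 window 20, with a ratio of 0.72. The H13 and Mcts2 windows held 21 and 25, with ratios of 0.84 and 0.99. The upstream Mest window held 8 CpGs, with an observed over expected CpG ratio of 0.33, and the downstream one 17, with a ratio of 0.59. The Peg3 window shares 263 of its 300 bases with the window of Usp29, which is transcribed the other way. No window was found for H19, Impact, Peg10, Peg13, Rtl1, Sgce and Trappc9. The other 29 of the 36 members had 41 windows in all. Of these, 41.5% had an observed over expected CpG ratio of at least 0.6 and at least 50% GC, against 33.5% of 32851 windows of all genes. Windows of members usually active on the maternal copy met both limits in 10 of 17 cases (58.8%), and those of the paternal copy in 7 of 24 (29.2%). These are shares of windows and not of genes, as the 17 belong to 13 genes and the 24 to 16. Igf2 and Snrpn, both usually paternal, have 4 windows each. Of the overlapping pair of Mest windows, 1 met both limits and 1 did not (ratios of 0.605 and 0.59). The core of the YY1 site (CCATNTT, either strand), a factor known to bind the Peg3 control region in mice, was in 9.76% of the members' windows and 16.1% of all. The NOBOX element (TAATTG) was in 7.32% and 8%, and a TATA box (TATAAA) in 14.6% and 13.6%. A match is a string of letters and not a bound site, and no binding or methylation was measured here.

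Gene counts summed to between 35066851 and 37946223 per knockout library and between 32126555 and 39148833 per wild-type library. Zar1 had 69, 96 and 226 counts in the knockout and 15245, 13612 and 12810 in wild type, or 3.58 ± 2.28 and 387 ± 8.02 CPM (counts scaled to a common library size with TMM factors, SD, n = 3 each; log2 fold change -6.75 ± 0.36, edgeR adjusted p = 1.15e-05). On the second principal component, which held 13.3% of the variance, knockout replicate 3 (49.6) stood apart from knockout replicates 1 (-11.5) and 2 (-34.9). The 12 oocyte markers summed to 20380 to 22420 CPM in the knockout and 18890 to 20230 CPM in wild type, and 7 of them were called higher and 1 lower (58.3% and 8.33%, against 14.9% and 18.5% of all tested genes). Of 12 granulosa and cumulus markers, 8 passed the filter on low counts, 1 was called higher (Nr5a2) and 1 lower (Kitl), and their sums were 125.3 to 130.8 CPM in the knockout and 105.6 to 116.7 CPM in wild type, most of it from Cyp19a1 and Nr5a2. The defining granulosa genes Amh and Foxl2 had at most 4 and 7 counts in any library, and Fshr had 47 in knockout replicate 2. The 9 theca and stroma markers summed to at most 2.49 CPM in the knockout and 3.51 CPM in wild type, with Pdgfra called lower. The 6 blood and immune markers summed to at most 2.36 CPM in the knockout and 1.26 CPM in wild type, with Hbb-bs and Hba-a1 at 0 counts in every library.

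The 36 members took a small part of the oocyte's polyA RNA. Together they held 0.0552%, 0.0581% and 0.0624% of gene counts in knockout replicates 1 to 3, and 0.0523%, 0.0520% and 0.0514% in wild-type replicates 1 to 3. Every knockout library lay above every wild-type library, with means of 0.0585 ± 0.00366% and 0.0519 ± 0.000481% (SD, n = 3 each). Grb10, H13 and Copg2 supplied 58.6% of the members' counts in the knockout and 53.7% in wild type. In CPM the members summed to 553.7 to 636.2 in the knockout libraries and 508.7 to 521.5 in the wild-type libraries. Grb10 (136 CPM in the knockout and 94.2 in wild type) and H13 (120 and 84.5) supplied most of this rise. Copg2 did not rise (91.1 and 97.3). The list of other imprinted genes summed to more and went the other way without overlap. It summed to 1133 to 1404 CPM in the knockout and 1567 to 1764 CPM in wild type. Most of that sum came from 1 gene, Nap1l4, with 784 ± 135 CPM in the knockout and 998.5 ± 88.4 CPM in wild type. Nap1l4 overlapped between the groups and was not called (edgeR adjusted p = 0.0525). Blcap, with 187 and 308 CPM, was the next largest, so the fall of the sum rests largely on these genes. Levels below are relative to the other polyA RNA of a library. For a lower value, less of that RNA per oocyte, fewer oocytes that hold it and less capture as polyA RNA cannot be told apart.

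Between genes, levels were compared as CPM per kb of the longest annotated transcript. In wild type the order from the top was Copg2 (24.6 CPM per kb), Grb10 (18.6), H13 (16.2), Mest (13.5), Plagl1 (8.66) and Inpp5f (8.02). In the knockout it was Grb10 (26.9 CPM per kb), H13 (23.1), Copg2 (23.0), Plagl1 (10.8), Phlda2 (9.80) and Mest (9.06). In the knockout the libraries of Grb10, H13 and Copg2 overlapped, and Phlda2 overlapped Plagl1 and Mest, so those orders are not resolved. In wild type Plagl1 and Inpp5f overlapped and the 4 genes above them did not. Above the median of all tested genes, 2.93 CPM per kb in the knockout and 3.13 in wild type, stood 11 members in the knockout and 9 in wild type. Kcnq1ot1, an unspliced transcript of 93.1 kb, reached 0.0256 CPM per kb in the knockout and 0.0245 in wild type.

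**Figure D1:**
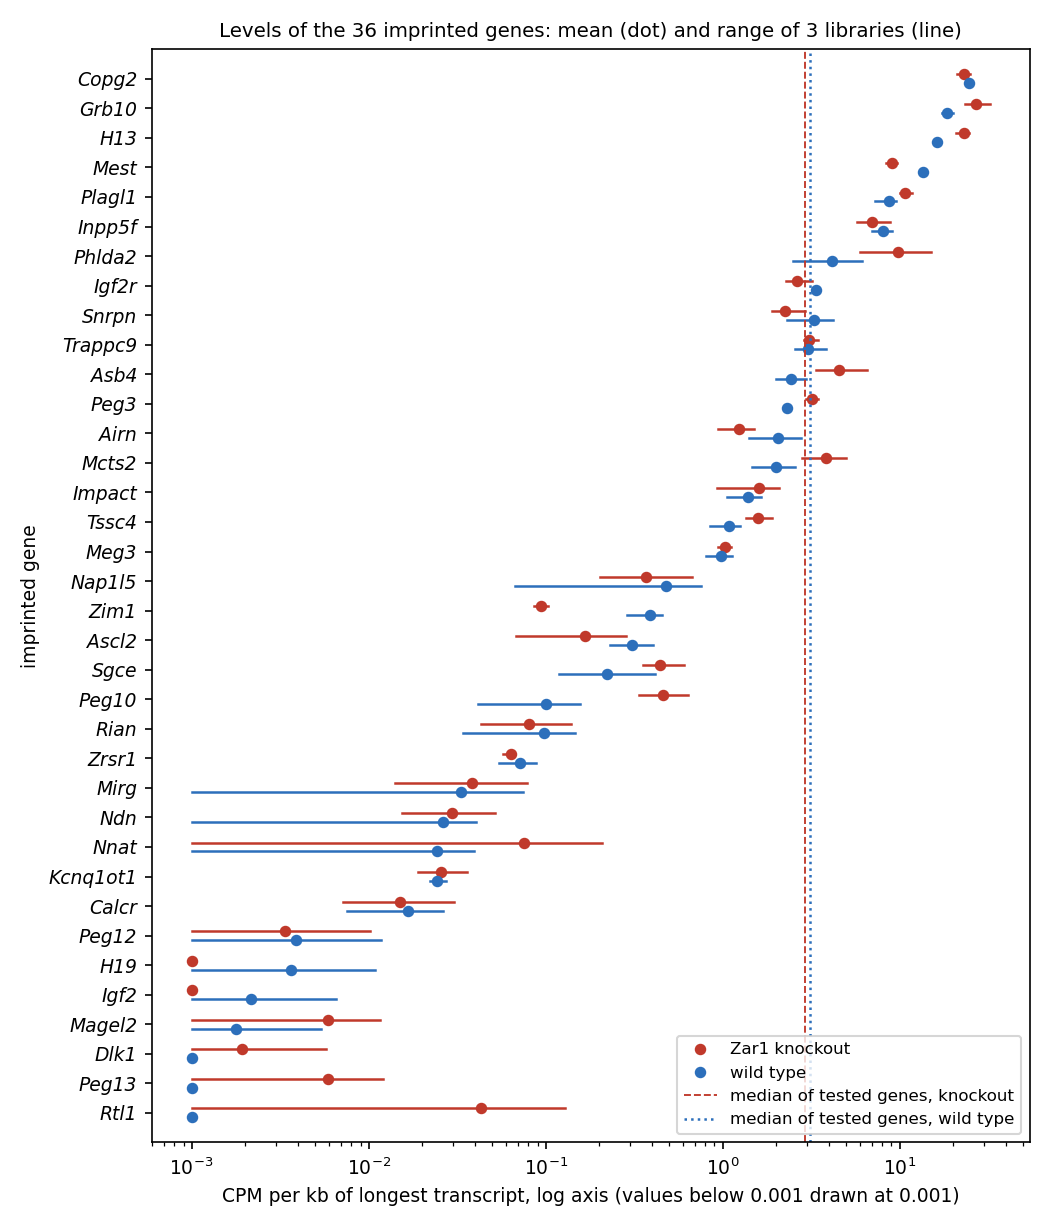
Levels of the 36 imprinted genes in CPM per kb of the longest transcript (log axis), with the mean as a dot and the range of 3 libraries as a line, Zar1 knockout above wild type for each gene. Copg2, Grb10 and H13 stand highest, between 16.2 and 26.9 CPM per kb on average, and the genes at the bottom, Igf2, Dlk1 and H19 among them, lie at or near 0 and are drawn at the left end of the axis where they are 0.

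Of the 36 members 25 passed the filter on low counts, and 9 of those differed between the genotypes, 7 higher and 2 lower in the knockout. The higher ones were Peg10, Phlda2, Mcts2, Asb4, Grb10, H13 and Peg3, and the lower ones Zim1 and Mest. The 9 make up 36% of the members tested, near the 33.4% called among all 16473 tested genes. By direction, 28% of tested members were called higher and 8% lower, against 14.9% and 18.5% of all tested genes. The groups did not overlap in 11 of the 25, against 47.8% of all tested genes. The median log2 fold change was 0.06 for these members and 0.00745 for all tested genes. A member silent in wild type could enter this count only by being higher in the knockout, and the reverse. A gene was called where edgeR (quasi-likelihood, two-sided) gave an adjusted p under 0.05, with the Benjamini-Hochberg adjustment taken over all tested genes. Without wild-type replicate 1 the members called higher numbered 3 and without knockout replicate 2 they numbered 4, while 4 were called lower without knockout replicate 3. Calls over all genes moved too. With all libraries 2448 of 16473 were called higher, against 1637 of 16963 without wild-type replicate 1 and 2191 of 16934 without knockout replicate 2. Those called lower numbered 3051 of 16473 with all libraries and 3125 of 16972 without knockout replicate 3.

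Genes of either usual parental copy were called in both directions. Of 12 tested genes usually active on the maternal copy, 4 (33.3%) were called higher (Grb10, H13, Asb4, Phlda2) and 1 (8.33%) lower (Zim1). Of 13 usually active on the paternal copy, 3 (23.1%) were called higher (Peg10, Peg3, Mcts2) and 1 (7.69%) lower (Mest). Of all tested genes 14.9% were called higher and 18.5% lower. The lower direction rests on 1 gene in each list. The calls of Grb10, Asb4, Phlda2 and Mcts2 were each lost under some alternatives. Median log2 fold changes were 0.04 and 0.06 in these lists. Called genes also went both ways within the Peg3, Peg10, Kcnq1ot1 and Grb10 domains, while both genes of the H13 domain rose.

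**Figure D2:**
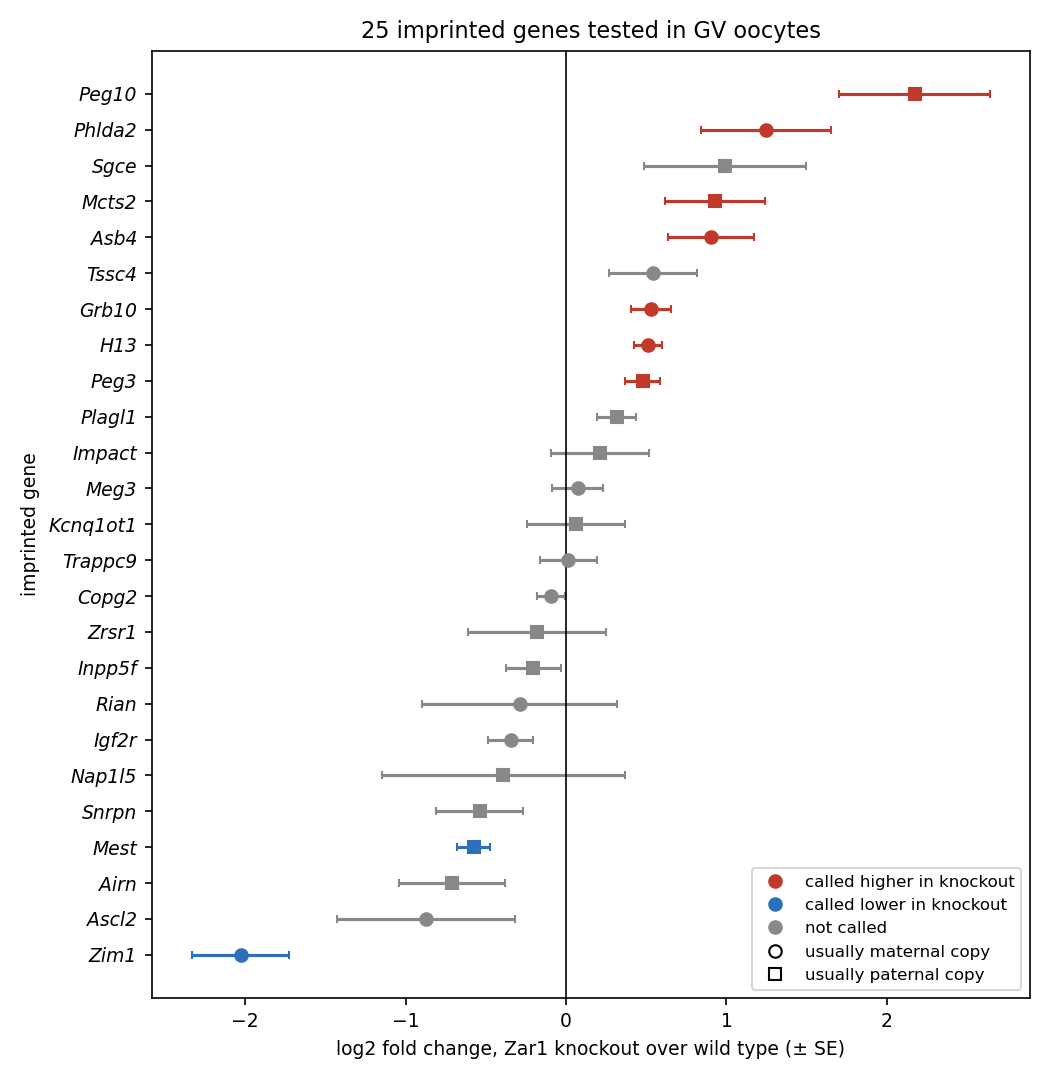
Log2 fold changes of the 25 tested imprinted genes, Zar1 knockout over wild type, with standard errors; circles are genes usually active on the maternal copy, squares on the paternal copy, and colour gives the call. Peg10 stands highest at 2.17 and Zim1 lowest at -2.03, and circles and squares lie on both sides of 0.

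The largest rise was that of Peg10, a paternally active gene derived from a retrotransposon and needed for the mouse placenta. Peg10 (ENSMUSG00000092035.9) had 2.23, 2.68 and 4.24 CPM in the knockout libraries, against 1.04, 0.681 and 0.277 CPM in the wild-type libraries. All knockout libraries lay above all wild-type libraries, a 4.51-fold increase (log2 fold change 2.17 ± 0.47 SE, edgeR adjusted p = 0.00748). These levels are low: the raw counts were 78, 100 and 155 in the knockout and 42, 24 and 9 in wild type. Sgce, an epsilon-sarcoglycan gene that starts beside Peg10 and runs the other way, had 1.57, 1.64 and 2.68 CPM in the knockout, against 0.596, 1.84 and 0.524 CPM in wild type. Wild-type replicate 2 lay inside the knockout range, and the difference was not called (log2 fold change 0.99 ± 0.51, adjusted p = 0.168). Without that library it was called (1.80, adjusted p = 0.0209).

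Asb4 lies further along the same domain on chromosome 6, is usually maternal, and encodes a substrate receptor of ubiquitin ligases. It had 12.1, 21.5 and 11.1 CPM in the knockout, against 7.55, 9.79 and 6.59 CPM in wild type (log2 fold change 0.90 ± 0.27, adjusted p = 0.0304). The groups did not overlap, but knockout replicate 2 was far above the other knockout libraries. The call was lost without it (0.55, adjusted p = 0.074) and without wild-type replicate 1 or 3 (0.86 and 0.78, adjusted p = 0.0974 and 0.11). Calcr, the calcitonin receptor gene at the other end of the domain, was nearly silent, with 6 counts over the knockout libraries and 7 over the wild-type libraries. Pon3 and Ppp1r9a, which lie between Peg10 and Asb4, were named after their values were seen. Pon3, a paraoxonase gene, was higher in the knockout (2.90 ± 1.07 and 0.749 ± 0.167 CPM, log2 fold change 1.94 ± 0.36, adjusted p = 0.00367), and Ppp1r9a, which encodes the neuronal scaffold neurabin, was lower (10.9 ± 0.688 and 16.3 ± 0.584 CPM, -0.58 ± 0.13, adjusted p = 0.00827). With offsets for GC content and transcript length the call of Ppp1r9a was lost (adjusted p = 0.075).

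Zim1 had the largest fall and sits next to Peg3, which rose. Zim1 (ENSMUSG00000002266.18) is a zinc finger gene usually active on the maternal copy. It had 0.659, 0.724 and 0.793 CPM in the knockout, against 2.21, 3.21 and 3.51 CPM in wild type. The knockout values lay close together and below every wild-type value, a 4.08-fold decrease (log2 fold change -2.03 ± 0.30, adjusted p = 0.00124). Peg3 (ENSMUSG00000002265.18), which encodes a large zinc finger protein and is paternally active, had 27.8, 25.9 and 30.1 CPM in the knockout, against 20.7, 19.3 and 20.2 CPM in wild type. Its groups did not overlap either, with a rise of 1.39-fold (0.48 ± 0.11, adjusted p = 0.0106). Usp29, a ubiquitin peptidase gene that starts within the Peg3 window printed above, had 8.99, 8.56 and 10.9 CPM in the knockout, against 21.7, 21.9 and 20.5 CPM in wild type. It fell 2.25-fold (-1.17 ± 0.14, adjusted p = 0.000374), so the genes that share this start region went in opposite directions. The calls of Zim1, Peg3 and Usp29 held at the 0.05 threshold under each of the 15 alternatives of scaling, filter, tool and left-out library.

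**Figure D3:**
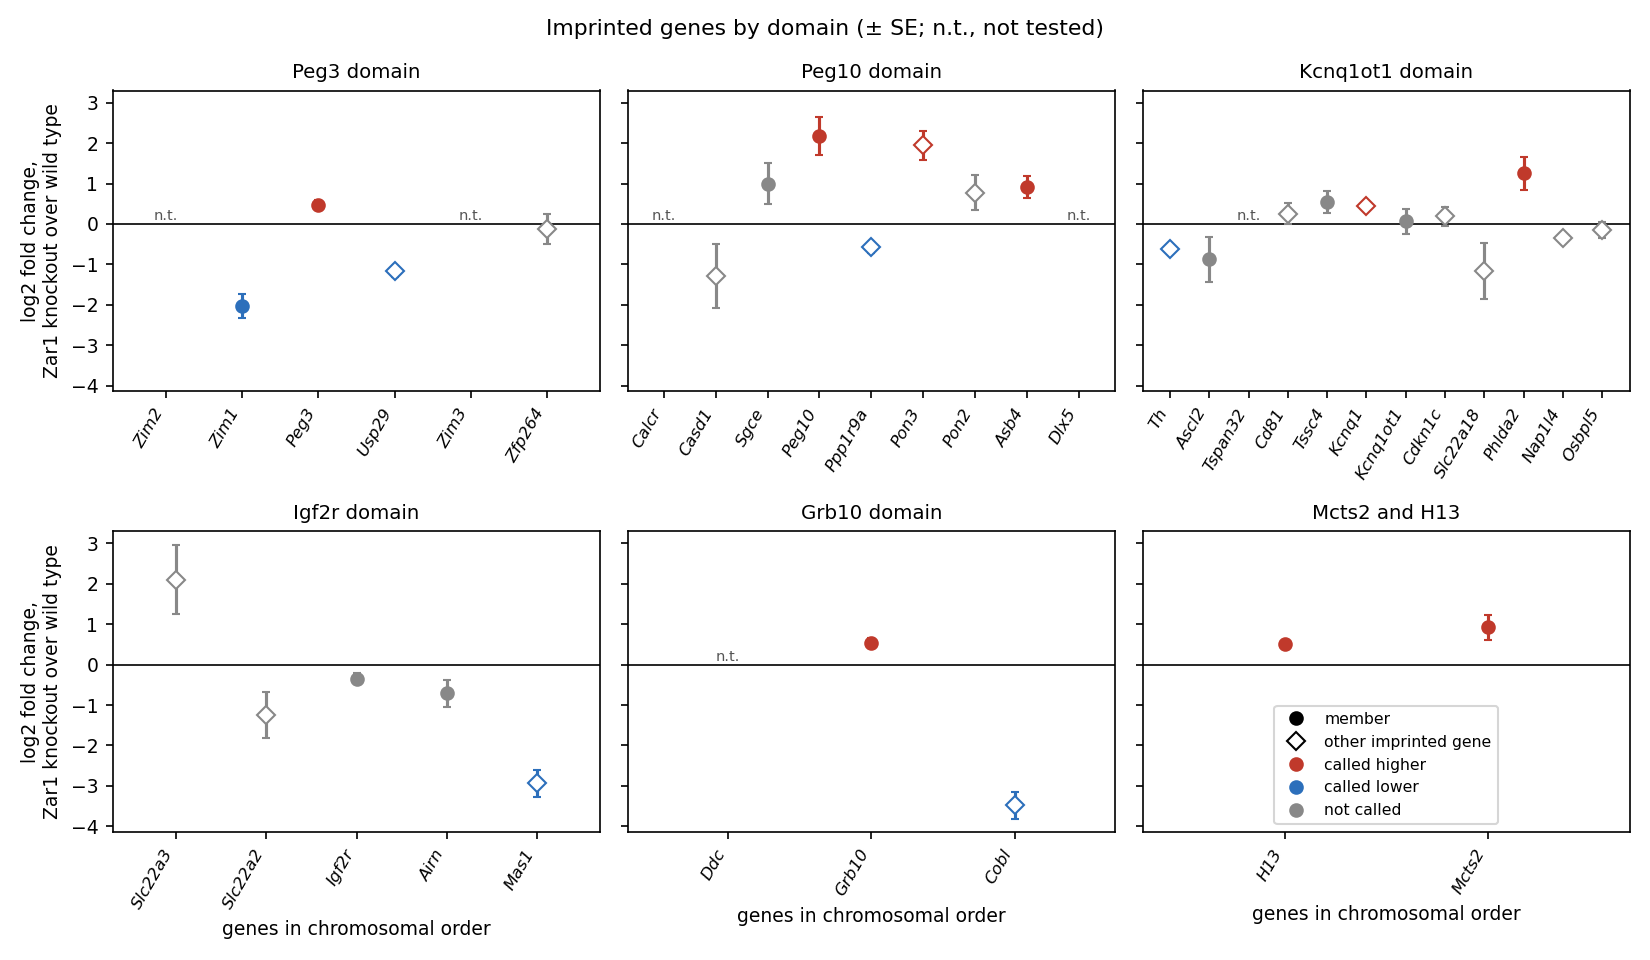
Log2 fold changes, Zar1 knockout over wild type (± SE), of imprinted genes in 6 domains, in the order in which they lie on the chromosome; filled circles are members, open diamonds other imprinted genes, and n.t. marks genes under the filter. Zim1 (-2.03) and Usp29 (-1.17) flank Peg3 (0.48), and Cobl (-3.47) lies beside Grb10 (0.53).

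Grb10 is an adaptor that restrains insulin and growth factor signalling, with maternal expression in most tissues and paternal expression in neurons. Grb10 (ENSMUSG00000020176.18) had 126, 118 and 164 CPM in the knockout, against 88.3, 92.8 and 101 CPM in wild type. Every knockout library was above every wild-type one, with knockout replicate 3 the highest (1.44-fold, log2 fold change 0.53 ± 0.13, adjusted p = 0.0113). The call was narrowly lost without wild-type replicate 1 (0.48, adjusted p = 0.0523). Its neighbour Cobl, an actin nucleator gene reported as imprinted in some tissues, had 2.06, 1.42 and 3.06 CPM in the knockout, against 15.9, 31.4 and 25.6 CPM in wild type. That is an 11.1-fold decrease (-3.47 ± 0.33, adjusted p = 0.000125), the largest among the other imprinted genes tested.

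H13 encodes signal peptide peptidase, and the intronless gene Mcts2, a retrogene copy of Mcts1, lies inside it on the same strand. H13 (ENSMUSG00000019188.17) had 108, 129 and 124 CPM in the knockout, against 86.6, 84.5 and 82.2 CPM in wild type. The groups were well apart (1.43-fold, log2 fold change 0.51 ± 0.09, adjusted p = 0.00226). Mcts2 (ENSMUSG00000042814.9), the paternally active guest gene, had 2.58, 3.41 and 4.54 CPM in the knockout, against 2.34, 1.33 and 1.85 CPM in wild type. Its lowest knockout library was just above its highest wild-type library (0.93 ± 0.31, adjusted p = 0.0477). That call was lost without knockout replicate 2 or 3 or any 1 wild-type library (log2 fold change 0.70 to 1.13, adjusted p between 0.052 and 0.151). It was also lost with library sizes alone (0.89, adjusted p = 0.0593) and with the replicate number as a block (0.93, adjusted p = 0.0771), where the fold changed little. The X-linked parent gene Mcts1 had 1.72, 1.29 and 0.793 CPM in the knockout, against 3.03, 2.21 and 1.85 CPM in wild type, which was not called (-0.90 ± 0.36, adjusted p = 0.0849). Reads that aligned to more than 1 place were tallied apart from genes, so counts of such near copies are uncertain.

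Phlda2, a pleckstrin homology gene that limits placental growth, was the member of the Kcnq1ot1 domain with a call. Phlda2 (ENSMUSG00000010760.6) had 4.52, 6.31 and 11.4 CPM in the knockout, against 1.89, 2.87 and 4.65 CPM in wild type. Knockout replicate 1 lay just below wild-type replicate 3, so the groups overlapped (2.38-fold, log2 fold change 1.25 ± 0.41, adjusted p = 0.0422). The call was lost without knockout replicate 2 or 3 or wild-type replicate 1 or 2 (adjusted p between 0.0577 and 0.139) and after the GC and length correction (0.104). Kcnq1ot1, the long antisense RNA that silences this domain on the paternal copy, had 2.00, 3.35 and 1.78 CPM in the knockout, against 2.53, 2.24 and 2.06 CPM in wild type (0.06 ± 0.30, adjusted p = 0.901). The wild-type values lay within the knockout range. Its host Kcnq1, a potassium channel gene, was higher in the knockout (31.2 ± 1.52 and 22.9 ± 2.14 CPM, 0.45 ± 0.11, adjusted p = 0.0152). That call was lost without wild-type replicate 1 or 2 (adjusted p = 0.066 and 0.0649) and after the GC and length correction (0.0817). Th, the tyrosine hydroxylase gene at the edge of the domain, was named after its values were seen. It was lower in the knockout (46.9 ± 4.49 and 71.7 ± 4.43 CPM, -0.61 ± 0.10, adjusted p = 0.00184), and this call held under all 15 alternatives. Tssc4 (2.75 ± 0.480 CPM in the knockout and 1.89 ± 0.369 CPM in wild type) and the trophoblast factor gene Ascl2 (0.270 ± 0.176 and 0.492 ± 0.141 CPM) were not called (adjusted p = 0.162 and 0.263).

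Mest, a paternally active gene for a hydrolase-like protein of mesoderm, was the other member that fell. Mest (ENSMUSG00000051855.16) had 25.9, 24.1 and 22.4 CPM in the knockout, against 35.1, 36.4 and 36.4 CPM in wild type. The wild-type libraries were nearly equal and all above the knockout libraries (1.49-fold lower in the knockout, log2 fold change -0.58 ± 0.10, adjusted p = 0.00288). Copg2, a coatomer subunit gene that overlaps Mest tail to tail, had 90.9, 98.8 and 83.5 CPM in the knockout, against 93.6, 101 and 97.7 CPM in wild type (-0.10 ± 0.09, adjusted p = 0.433). In GENCODE M21, 23.1% of the exon bases of Mest also lie in exons of Copg2 on the other strand. The strand setting of the counting is unknown here, so counts from the shared stretch are uncertain.

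**Figure D4:**
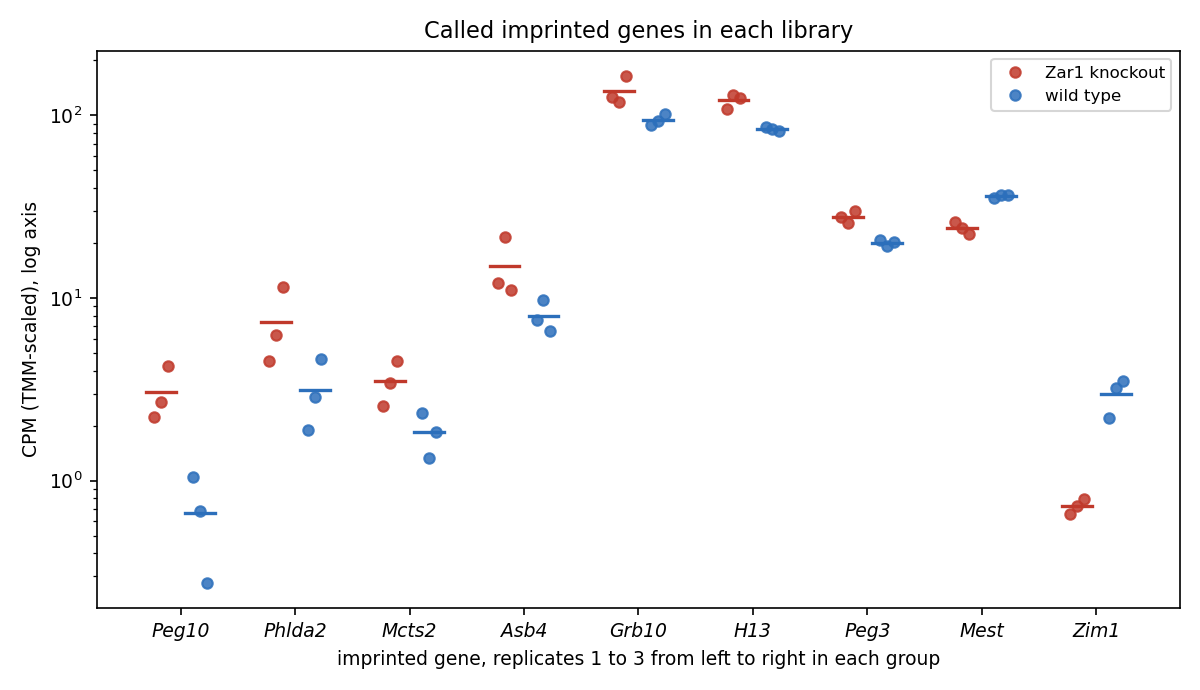
CPM of the 9 called imprinted genes in each library (log axis), Zar1 knockout left of wild type, with bars at the means of 3 libraries. The groups overlap for Phlda2 and for no other gene shown, and the knockout values of Zim1 lie between 0.659 and 0.793 CPM.

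Igf2r, the receptor that clears IGF2 and is maternally active in mouse tissues, and its antisense RNA Airn, which silences it on the paternal copy, had lower means in the knockout without a call. Igf2r had 20.2, 21.9 and 28.3 CPM in the knockout, against 28.9, 29.7 and 30.8 CPM in wild type (log2 fold change -0.35 ± 0.14, adjusted p = 0.0891). Knockout replicate 3 came close to the wild-type values, and without it the fall was called (-0.50, adjusted p = 0.00921). Airn had 1.29, 1.77 and 2.08 CPM in the knockout, against 2.68, 1.93 and 3.82 CPM in wild type, which overlapped (-0.71 ± 0.33, adjusted p = 0.131). Mas1, a receptor gene at the far end of the Airn transcript, had 1.12, 0.429 and 0.821 CPM in the knockout, against 6.48, 5.62 and 6.04 CPM in wild type. It fell 7.66-fold (-2.94 ± 0.33, adjusted p = 0.000302).

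The maternally active RNA of the Dlk1 domain, Meg3, was the main transcript of its domain and differed little. It had 13.7, 15.3 and 16.1 CPM in the knockout, against 14.8, 11.7 and 16.5 CPM in wild type (log2 fold change 0.07 ± 0.16, adjusted p = 0.764). Rian, a host of small nucleolar RNAs, had 17, 13 and 41 counts in the knockout and 48, 32 and 9 in wild type, so each group spanned a several-fold range. Mirg, a host of microRNAs, had 16 counts over the knockout libraries and 14 over the wild-type libraries. Dlk1, a Notch-family ligand gene that is paternally active, had 1 count over the knockout libraries and 0 over the wild-type libraries. Rtl1, a retrotransposon-derived placental gene, had 30 counts in knockout replicate 3 and 0 in the other 5 libraries.

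Plagl1, a paternally active zinc finger gene that regulates other imprinted genes, had 52.7, 61.9 and 55.4 CPM in the knockout, against 47.8, 50.5 and 38.4 CPM in wild type. The groups did not overlap, yet the test was not passed (log2 fold change 0.31 ± 0.12, adjusted p = 0.0752). It was passed in DESeq2 (adjusted p = 0.0398), with upper-quartile factors (0.0397) and after the GC and length correction (0.0124). Its neighbour Phactr2, named after its values were seen, fell to 0.612 ± 0.29 CPM in the knockout, against 1.62 ± 0.241 CPM in wild type (-1.40 ± 0.40, adjusted p = 0.0263). That call was lost after the GC and length correction and without knockout replicate 1 or 3 or wild-type replicate 1 or 3 (adjusted p between 0.0605 and 0.0866). Inpp5f, a phosphoinositide phosphatase gene with a paternally active short form, had 32.9 ± 7.71 CPM in the knockout and 38.0 ± 4.97 CPM in wild type (adjusted p = 0.395). Without knockout replicate 3 it was called lower (log2 fold change -0.41, adjusted p = 0.0446). Snrpn, a splicing protein gene, had 6.10, 3.97 and 4.02 CPM in the knockout, against 4.79, 7.01 and 8.69 CPM in wild type (adjusted p = 0.16). In GENCODE M21, 27.3% of its exon bases are shared with other genes of the same strand, Snurf among them, so its count is uncertain. In the same domain Ube3a, a ubiquitin ligase gene named after its values were seen, was lower in the knockout (71.2 ± 5.15 and 98.7 ± 4.45 CPM, log2 fold change -0.47 ± 0.08, adjusted p = 0.00314), a call that offsets for GC content and transcript length removed (-0.14, adjusted p = 0.266). Impact, a regulator of the GCN2 kinase (6.07 ± 2.27 CPM in the knockout and 5.24 ± 1.13 CPM in wild type), and Trappc9, a vesicle tethering gene (14.0 ± 1.5 and 13.8 ± 3.09 CPM), overlapped between groups (adjusted p = 0.641 and 0.959).

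Guest genes that lie in introns of other genes were mostly low while their hosts were well expressed. Zrsr1, a retrogene of the splicing factor Zrsr2, had 31 counts over the knockout libraries and 35 over the wild-type libraries (log2 fold change -0.18 ± 0.43, adjusted p = 0.787). Its host Commd1 had 15.3 ± 3.67 CPM in the knockout and 12.5 ± 1.12 CPM in wild type (adjusted p = 0.259), and Zrsr2 had 24.7 ± 5.10 and 25.5 ± 0.800 CPM (adjusted p = 0.845). Nap1l5, a histone chaperone family gene, had 13, 16 and 45 counts in the knockout and 56, 40 and 4 in wild type (-0.39 ± 0.76, adjusted p = 0.733). Its host Herc3 fell to 25.3 ± 1.53 CPM in the knockout, against 40.8 ± 5.11 CPM in wild type (-0.69 ± 0.12, adjusted p = 0.00256). Nap1l1, a family relative of Nap1l5, was higher in the knockout (134 ± 2.93 and 109.9 ± 7.28 CPM, 0.29 ± 0.08, adjusted p = 0.0197), which was not called when wild-type replicate 1 or 3 was left out (0.0743 and 0.105). Nnat, a neuronal proteolipid gene, had 12 counts over the knockout libraries, 11 of them in replicate 3, and 4 over the wild-type libraries. Its host Blcap fell to 187 ± 14.6 CPM in the knockout, against 308 ± 9.58 CPM in wild type (-0.72 ± 0.08, adjusted p = 0.000238). Peg13, an intronic RNA of Trappc9, had 3 counts over the knockout libraries and 0 over the wild-type libraries.

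The 11 members under the filter were H19, Igf2, Calcr, Ndn, Magel2, Peg12, Dlk1, Rtl1, Mirg, Peg13 and Nnat. H19 and Igf2, the noncoding RNA and the fetal growth factor that share a control region, had 0 counts in the knockout and 1 each in wild type. A count of 0 allows up to 3 counts, or 0.0805 to 0.0859 CPM per knockout library, counting error only. In GENCODE M21, 62.8% of the exon bases of Igf2 are shared with Gm49394 on the same strand. The count of Igf2 and this bound for it are therefore uncertain. Ndn and Magel2, related genes of the Prader-Willi region, had 12 and 3 counts over the knockout libraries and 11 and 1 over the wild-type libraries. Peg12 had 1 count in each group. No fold is given for these genes.

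**Figure D5:**
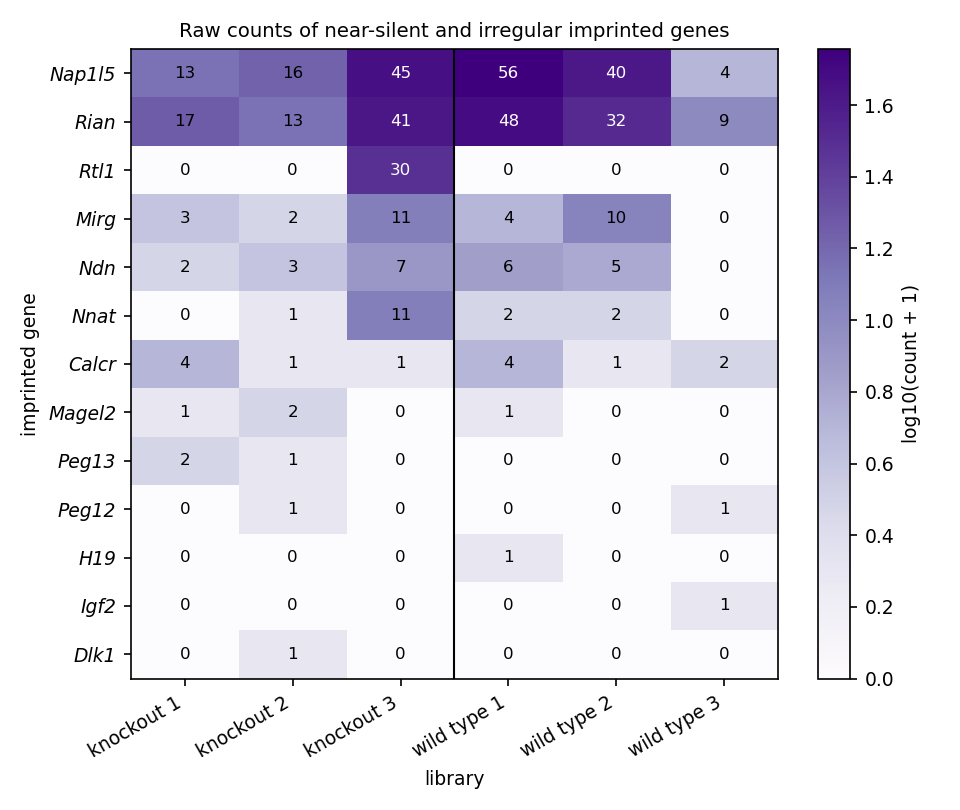
Raw counts of the 11 imprinted genes under the filter and of Rian and Nap1l5, per library, Zar1 knockout left of wild type; colour is log10(count + 1). Wild-type replicate 3 has 0 counts of Mirg, Ndn and Nnat and the fewest of Rian and Nap1l5, and Rtl1 appears in knockout replicate 3 alone, with 30 counts.

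Several of the low members were high or low in the same libraries within a genotype. Wild-type replicate 3 had 4 counts of Nap1l5, 9 of Rian and 0 of Mirg, Ndn and Nnat, and knockout replicate 3 had the most of each among the knockout libraries. Of the 13 genes in the plot of raw counts, 5 (Nap1l5, Rian, Mirg, Ndn and Nnat) had both their highest knockout value and their lowest wild-type value in replicate 3. Rian and Nap1l5 passed the filter and were put into that plot for their irregular counts, so their place among the 5 follows from that choice. They are counted again among the tested members below. Of the 12 granulosa and cumulus markers 6 did so too (Hsd17b1, Cyp11a1, Foxl2, Inhba, Amhr2 and Gatm, which is also among the other imprinted genes), and the other 6, Cyp19a1, Nr5a2, Amh, Fshr, Kitl and Inha, did not. Of the 25 tested members 7 did so, Peg10 and Sgce among them. How many of all tested genes did so was not computed. Knockout replicate 3 also stood apart on the second principal component over all tested genes. Wild-type replicate 3 (-3.94) did not stand apart there from wild-type replicates 1 (-3.75) and 2 (4.57). Without the number over all tested genes, these tallies do not set the named genes apart from others. Hsd17b1 stood at 0.945, 1.72 and 4.08 CPM in the knockout and 2.48, 4.34 and 0.801 CPM in wild type, and Cyp11a1 at 1.92, 1.02 and 6.13 CPM in the knockout and 2.93, 2.78 and 1.82 CPM in wild type. Cyp19a1, which with Nr5a2 made up most of the markers' sum, had 42.1, 51.0 and 35.6 CPM in the knockout and 42.4, 47.1 and 53.8 CPM in wild type. The part of granulosa RNA in the counts of these members was not tested. In 11 of the 25 tested members the lowest wild-type value was in wild-type replicate 3. The highest knockout value was in knockout replicate 3 in 16 of the 25, Peg10 and Phlda2 among them. Without that library Peg10 was still called, and Phlda2 was not (adjusted p = 0.139).

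Imprinted genes that are not among the 36 members were called lower more often than higher. Of 47 such genes 46 were matched and 28 passed the filter, of which 2 were called higher and 9 lower, with a median log2 fold change of -0.41. The 39.3% called compare with 33.4% of all tested genes, and the 32.1% called lower with 18.5%. After the GC and length correction 6 of them were called lower, as were 2587 of all 16473 tested genes. Without that correction the 4 with the smallest adjusted p were Cobl, Blcap, Mas1 and Usp29, all lower and all described above beside their neighbours. Pon3 and Kcnq1 were the ones called higher. Of 18 genes that set or keep imprints 16 were tested, with 3 called higher and 6 lower and a median of 0.06. That is 56.2% called, against 33.4% of all tested genes. By direction, 18.8% were called higher and 37.5% lower, against 14.9% and 18.5% of all tested genes. The 4 smallest adjusted p were those of Setd2, Dnmt1, Zfp445 and Dnmt3b. The histone methyltransferase gene Setd2 was higher in the knockout (399 ± 23.3 and 258 ± 17.5 CPM, log2 fold change 0.63 ± 0.08, adjusted p = 0.000476), and the maintenance methyltransferase gene Dnmt1 was lower (-0.35 ± 0.06, adjusted p = 0.0029). Zfp445, a zinc finger protein that guards imprints, fell to 13.5 ± 1.25 CPM in the knockout, against 21.9 ± 0.855 CPM in wild type (-0.70 ± 0.13, adjusted p = 0.00298). Dnmt3b, a de novo methyltransferase gene, fell to 37.4 ± 3.77 CPM in the knockout, against 53.9 ± 1.34 CPM in wild type (-0.53 ± 0.10, adjusted p = 0.0037).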

How the data were processed

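Libraries of polyA RNA from 10 oocytes each were prepared with a QIAseq FX kit, per the labels' protocols. For each library the authors deposited a table of unnormalized read counts by gene. HTSeq 0.13.5, STAR 2.7.8a, cutadapt 2.8, bcl2fastq 2.20.0.422 and the genome build mm39 are named per the submitters' processing notes. Neither the annotation release nor the strand setting is given in the sources used here. Genes were matched to symbols by Ensembl ID (52093 of 53700 rows), and summary rows were left out of library sizes.

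Differences were tested on the whole table with edgeR 4.0.16 in R 4.3.3 (TMM, filterByExpr, quasi-likelihood, 16473 genes), after a check on simulated counts. Standard errors are the absolute log2 fold change over the root of F. Alternatives were other scalings and filters, DESeq2 1.42.0, limma-voom (limma 3.58.1), a replicate block, each library left out, an adjusted p of 0.01, median transcript lengths and, added after the data were seen, lowess offsets over GC content and length (99.7% of tested genes). Transcript lengths and overlaps came from GENCODE M21 and promoters from RefSeq, both on GRCm38, so gene coordinates are not given.

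The members and lists (other imprinted genes, imprint factors, partners, retrogene parents, cell type markers) were chosen with earlier results of these data known. Named were all members, their listed partners and parents, and up to 4 called genes with the smallest adjusted p of the lists of other imprinted genes and imprint factors. Outside this rule, Pon3, Ppp1r9a, Th, Phactr2, Ube3a, Nap1l4, Slc22a3 and Dio3 were named after their values were seen. Pairs of libraries of 1 genotype differed beyond counting noise (chi-square over its degrees of freedom between 12.8 and 39.9), so none was counted as a duplicate.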

Additional observations from a re-analysis of the deposited data

How the results depend on the processing

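The calls of Peg10, Peg3, H13, Zim1 and Mest held at the 0.05 threshold under all 15 alternatives of scaling, filter, tool, block, correction and left-out library. At an adjusted p of 0.01, 2 members were called higher, as were 1 other imprinted gene and 1 imprint factor. The share of all tested genes at that threshold is not given here. With each library left out in turn, members called higher ranged from 3 to 7 and called lower from 2 to 4, other imprinted genes called higher from 1 to 4, and imprint factors called higher from 1 to 4. Calls over all genes tested in those fits ranged from 1541 to 2509 higher and from 2285 to 3125 lower. Other imprinted genes called higher numbered 4 without a filter and 1 with the GC and length correction, which was chosen after seeing the data. Over all genes these settings called 2736 of 34886 and 2604 of 16473 higher. The GC and length correction also moved the median log2 fold change of the tested members to 0.23, against 0.0388 for all tested genes. The members' median ranged from -0.0323 to 0.138 over left-out libraries.

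Signs turned only in values that were not called. Under the GC and length correction the log2 fold changes were 0.080 for Copg2, 0.038 for Rian, -0.053 for Trappc9 and 0.158 for Zrsr2. Trappc9 was also negative with library sizes alone (-0.025) and without a filter (-0.0015), and Zrsr2 positive with upper-quartile factors (0.0047). Over left-out libraries the values ranged from -1.145 to 0.0916 for Nap1l5, -0.0593 to 0.1803 for Meg3, -0.9324 to 0.1249 for Rian, -0.1055 to 0.2047 for Trappc9, -0.0224 to 0.4955 for Impact, -0.2618 to 0.2313 for Kcnq1ot1 and -0.2272 to 0.0741 for Zrsr2. The causes were not tested.

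Deviations of same-numbered libraries correlated between -0.042 and -0.00898, and those of differently numbered libraries between -0.0201 and 0.0441. No shared signal of the numbers was seen, but this cannot say whether same-numbered pools were collected together, which no label gives. With the replicate number as a block 6 members were called higher and 2 lower, as were 2078 and 2760 of all 16473 tested genes. With the median transcript length, 12 members in the knockout and 10 in wild type stood above the median level. Depth limits members near 0 counts.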

Other observations

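Slc22a3, an organic cation transporter gene of the Igf2r domain, had 1338 counts in knockout replicate 1, against 104 and 144 in the other knockout libraries and 125, 127 and 122 in the wild-type libraries, and was not called (edgeR adjusted p = 0.092). Dio3, at the end of the Dlk1 domain, had 23 counts in knockout replicate 3, the library with the 30 counts of Rtl1, and at most 6 in any other library.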
